A study of Mus musculus with 20 samples.

Results

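The libraries compared here are the control microglia of a mouse series on BRAF V600E, split by age: 4 libraries from 2 mice at the stage called end-stage and 6 libraries from 3 mice at 2 months. They are 10 of the 20 libraries deposited and come from 5 of 10 mice, each mouse giving 1 library labelled cortex and 1 labelled brainstem. Members were chosen by the mouse number in the name of the count column, end-stage mice M1375 and M1521 against 2-month mice M2618, M2629 and M2633, with an odd running number for brainstem and an even one for cortex. The comparison asks how microglia without an active Cx3cr1-CreER and Braf V600E pair differ between the earlier and the later age of the series.

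All the mice come from crosses of Cx3cr1-CreER, a tamoxifen-dependent Cre inserted in a microglial gene, with Braf LSL-V600E, a Braf allele that encodes the active kinase only after Cre has removed a stop cassette. Pregnant females received 4-hydroxytamoxifen once, at 37.5 mg per kg and embryonic day 9.5, so every library shares that exposure. The control genotypes were not the same at the 2 stages. End-stage mouse M1375 is Braf VE; CX3 WT and so has no Cre. End-stage mouse M1521 is Braf WT; CX3 HET, and the 3 mice at 2 months are Braf WT; CX3 HET by the titles that carry their numbers. The sources used here do not give the age in months of the end-stage mice or how the cells were sorted or purified.

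The records of the 2-month mice conflict. For 5 of the 6 mice at 2 months the number in the title differs from the number in the column name of the same record, and reading the genotype from the record instead changes it for 4 of them. By that record reading, M2618 and M2633 are mutants, so 2 of the 3 control mice at 2 months used here would carry the active allele. Values under the record reading are given beside the called genes and the gene lists described at length. End-stage libraries hold running numbers 1, 2, 5 and 6 and 2-month libraries running numbers from 9 upward, so stage, running order and the sets of mice cannot be told apart.

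Microglia are the resident macrophages of the brain and arise from yolk sac progenitors. In the healthy adult brain they express a homeostatic set of sensors such as P2ry12 and Tmem119, kept up by CSF1 receptor and TGF-beta signalling. With age, microglia are known for higher type I interferon response genes, more class I antigen presentation and more genes of the lysosome and of lipid handling. Type I interferon acts through a factor complex that binds a promoter element, and the products, such as the IFIT and OAS proteins, block viral replication.

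Levels are CPM, counts scaled to a common library size by TMM, the trimmed mean of M values, and differences are log2 of end-stage over 2-month. The 10 libraries held 9395203 to 19385947 counts, and a count of 0 allowed up to 0.155 to 0.319 CPM. Homeostatic genes were high in all 10 libraries, P2ry12 at 3843 to 8769 CPM and Tmem119 at 6667 to 11399 CPM, so the cells carry the label's defining markers. Hox genes of the hindbrain summed to 1.97 to 4.31 CPM in the cortex-labelled libraries and 0.363 to 1.19 CPM in the brainstem-labelled ones, against the label, and libraries are therefore called cortex-labelled and brainstem-labelled. Sex differed: the Y-linked Ddx3y reached 41.2 and 36.1 CPM in M2618, which had no Xist counts, while Xist stood at 148 to 307 CPM in the other 4 mice. The brainstem-labelled library of M1375 stood apart in long transcripts and in mitochondrial transcripts, which summed to 3742 CPM in it and 1206 to 2742 CPM in the other libraries. Summed markers of neurons (3.29 to 25.9 CPM), T and NK cells (4.11 to 23.9), border macrophages (1.47 to 39.2) and erythroid cells (0.156 to 47.0) were low. Those of B and plasma cells (648 to 980 CPM, led by Ighm), neutrophils (460.4 to 842, led by Csf3r) and oligodendrocytes (199 to 320 CPM, led by Cnp) were higher. Few members made up the first 2 sums: Csf3r alone stood at 460.3 to 823 CPM and Ighm at 571 to 892 CPM. Below 5 CPM in all 10 libraries were 10 of 12 neutrophil markers, 9 of 12 of B and plasma cells and 5 of 12 of oligodendrocytes. In bulk libraries fewer cells of a type and less RNA per cell cannot be told apart.

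Few genes differed between end-stage and 2-month controls, and the 3 genes that passed were all lower at end-stage. With both region labels together, Sun1 and Gm10093 fell, 2 of 15318 tested genes (0.0131%, limma voom with a mouse correlation, adjusted p under 0.05). In cortex-labelled libraries alone the same 2 genes fell (0.0131%, edgeR quasi-likelihood), and in brainstem-labelled libraries Sun1, Gm10093 and Mxra8 fell (0.0196%). At an unadjusted p under 0.05 there were 1351, 1325 and 1184 genes. DESeq2, run within each region label, called 66 genes in cortex-labelled libraries (37 higher, 29 lower) and 46 in brainstem-labelled ones (23 higher, 23 lower), with 11 in both.

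Sun1 encodes an inner nuclear membrane protein that links the nuclear lamina to the cytoskeleton (chromosome 5, 139200637 to 139249840, GRCm38). In cortex-labelled libraries it stood at 30 and 31.3 CPM in end-stage mice M1375 and M1521 and at 263, 143 and 129.8 CPM in 2-month mice M2618, M2629 and M2633. In brainstem-labelled libraries, in the same order of mice, it stood at 26.1 and 25.0 CPM against 149.9, 190.3 and 195 CPM. Every end-stage library was thus below every 2-month library, and the end-stage mice, with and without Cre, both lay between 25.0 and 31.3 CPM. The means differed 5.82-fold in cortex-labelled libraries (30.7 ± 0.971 against 179 ± 73.1 CPM, SD, n = 2 and 3) and 6.99-fold in brainstem-labelled ones. The log2 difference was −2.64 ± 0.23 (SE) over both labels (limma voom, adjusted p = 0.000351), −2.54 ± 0.30 in cortex-labelled (edgeR, adjusted p = 0.0256) and −2.80 ± 0.30 in brainstem-labelled libraries (0.0149). Without each mouse in turn the joint call held in 5 of 5 cases, with adjusted p-values of 7.58e-05 to 0.0190. The call within a label held in 2 of 5 cases each. With all 20 libraries in the joint fit the call was lost (−2.65, adjusted p = 0.169).

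Sun1 did not follow stage outside the controls. The 4 end-stage mutant libraries stood at 30.2 to 39.0 CPM, at the level of the end-stage controls. Among 2-month mutants by the number reading, M2617 stood at 252 and 368 CPM, and M2621 and M2624 stood between 24.1 and 39.1 CPM. High Sun1 was therefore a feature of 4 of the 6 mice at 2 months. Under the record reading, where controls at 2 months are columns M2617, M2621 and M2629, the joint difference was −2.05 with an adjusted p of 0.503, and the calls within cortex- and brainstem-labelled libraries were lost too (0.576 and 0.892). Gene counts do not separate transcripts of the native locus from those of a transgene with the same coding sequence, and the labels name no such transgene.

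Mxra8, a cell surface protein of the immunoglobulin fold that serves as an entry receptor for alphaviruses, lies on chromosome 4 (155839680 to 155844088, GRCm38). It stood at 7.10 and 4.65 CPM in the cortex-labelled end-stage libraries and 44.9, 139 and 114 CPM in the 2-month ones. In brainstem-labelled libraries it stood at 2.76 and 1.92 CPM against 38.4, 134 and 137 CPM. The groups did not overlap, and M2618 was the lowest of the 2-month mice in both labels. The brainstem-labelled difference of −5.47 ± 0.70 passed (edgeR, adjusted p = 0.0362), and those in cortex-labelled libraries (−4.09 ± 0.64, 0.129) and over both labels (−4.64 ± 0.77, limma voom, 0.0790) did not. With each mouse left out in turn, each of these 3 tests passed in 1 of 5 cases, the one without M2618. The brainstem-labelled call was also lost under the record reading (−4.98, adjusted p = 0.283). Mutant mice spanned the same range: M1376 at end-stage stood at 136 and 183 CPM and M1524 at 6.18 and 7.05 CPM.

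Gm10093 is annotated as a processed pseudogene, outside the rule for named genes, and is named here because it was called. It lies on chromosome 17 (78491582 to 78493025, GRCm38). It stood at 1.48 and 0.753 CPM at end-stage and 17.2, 18.2 and 9.71 CPM at 2 months in cortex-labelled libraries, and at 1.47 and 1.71 CPM against 18.9, 15.4 and 12.4 CPM in brainstem-labelled ones. All end-stage libraries were again below all 2-month libraries. The joint log2 difference was −3.48 ± 0.42 (limma voom, adjusted p = 0.0109), and it held in 3 of 5 cases when a mouse was left out. The joint call also passed under the record reading (−3.39, adjusted p = 0.0436), where those within cortex- and brainstem-labelled libraries did not (0.0561 and 0.204), and it was lost with all 20 libraries in the fit (−3.49, 0.0506). The 6 libraries of 2-month mutants stood at 7.88 to 18.6 CPM and the end-stage mutants at 0.832 to 7.21 CPM, with M1524 at 6.5 and 7.21 CPM. Pseudogenes can share reads with near-identical copies, and the sources used here do not say how such reads were counted.

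**Figure D1:**
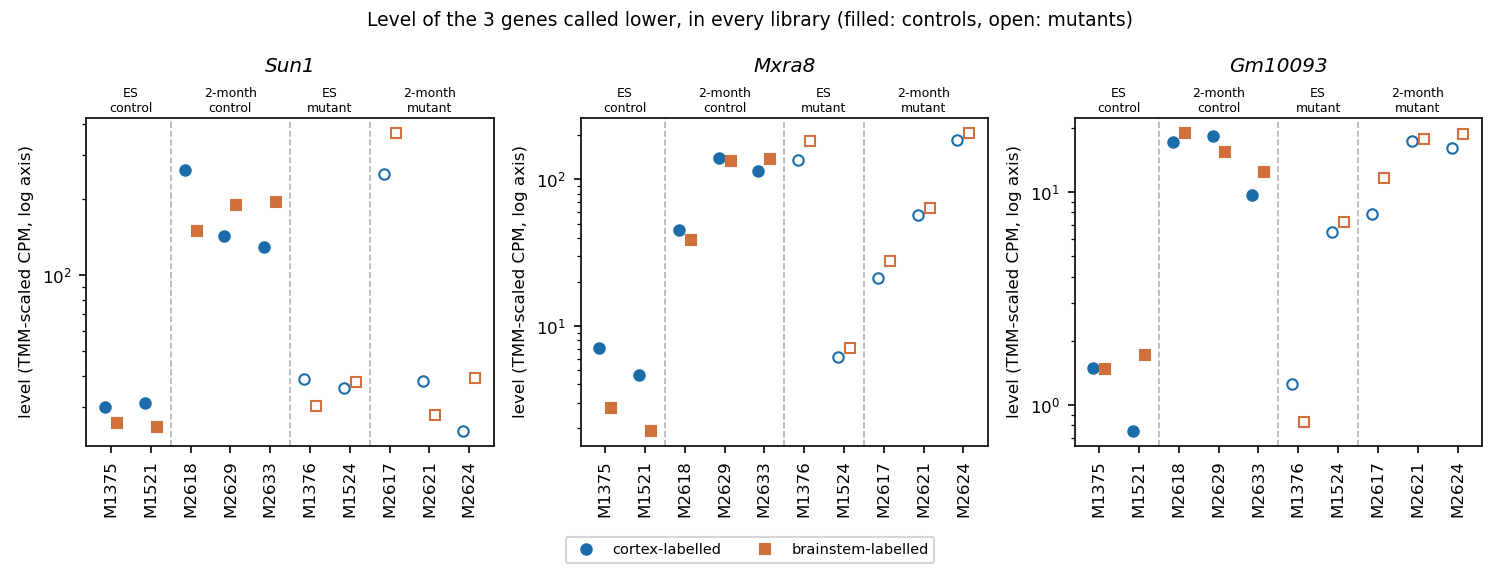
Level of Sun1, Mxra8 and Gm10093 in each of the 20 libraries, in TMM-scaled CPM on a log axis, with filled symbols for controls and open symbols for mutants by the number reading, circles cortex-labelled and squares brainstem-labelled. All 4 end-stage control libraries lie below all 6 from 2-month controls for each gene, while 2-month mutants for Sun1 and end-stage mutants for Mxra8 spread over the range of both stages.

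Several genes with small joint p-values missed the threshold although their groups did not overlap in either label. Of these, Zfp13, a zinc finger protein, had the smallest p but low counts, at 0.847 to 1.56 CPM in the 4 end-stage libraries and 0 to 0.0565 CPM in the 6 at 2 months (limma voom, adjusted p = 0.0535). Others, such as Dlg5, Dtx3 and Plcg1 (adjusted p = 0.0790 to 0.0822), also lie among them, and those below were picked after their values were seen. Cdc42ep3, an effector of the GTPase Cdc42, stood at 40.9 and 29.8 CPM against 15, 19.2 and 13.8 CPM in cortex-labelled and 29.6 and 27.7 CPM against 6.90, 10.1 and 5.84 CPM in brainstem-labelled libraries (1.46 ± 0.23, limma voom, adjusted p = 0.0790). Abca7, a lipid transporter of phagocytic cells, stood at 35.5 and 36.1 CPM against 15.1 to 22.6 CPM, and at 23.1 and 27.3 CPM against 11 to 12.3 CPM (1.01 ± 0.17, 0.0790). Both genes were thus higher in each end-stage library, in the mouse with Cre and in the one without. Alad, an enzyme of haem synthesis, stood the other way, at 24.5 and 18.9 CPM against 32.1, 39.0 and 44.3 CPM, and at 18.1 and 19.7 CPM against 43.6, 47.8 and 52.8 CPM (−1.13 ± 0.17, 0.0542). Rnase4, a secreted ribonuclease, had the narrowest spread among these, at 1331 to 1499 CPM in the 4 end-stage and 1908 to 2117 CPM in the 6 libraries at 2 months (−0.51 ± 0.09, 0.0822). Marcksl1, an actin-linked substrate of protein kinase C, stood at 33.2 to 69 CPM at end-stage and 86.7 to 184 CPM at 2 months (−1.43 ± 0.26, 0.0859), and passed under the record reading (−2.35, 0.0230).

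Genes whose groups did not overlap were common. In cortex-labelled libraries 2141 genes (14%) were higher in both end-stage libraries than in all 3 from 2 months and 2264 (14.8%) were lower. In brainstem-labelled libraries 1892 (12.4%) were higher and 1574 (10.3%) lower. In both labels at once, 366 genes (2.39%) were higher without overlap and 280 (1.83%) lower, and 128 and 209 genes were separated in opposite directions. These shares are the background against which list members are read below.

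Genes also differed between mice of one stage. With region and mouse in the model, a test added after the data were seen, 106 genes (0.692%) differed between mice within a stage (edgeR, adjusted p under 0.05), 51 between the end-stage mice and 92 among the 2-month mice. That test takes the 2 libraries of an animal as its replicates, so its count cannot be set against those between stages. Slc1a3, a glutamate transporter best known from astrocytes, stood at 125 and 208 CPM in the cortex- and brainstem-labelled libraries of M1375 and at 1130 and 1508 CPM in those of M1521. At 2 months it stood at 186 and 224 CPM in M2618, 1001 and 1447 CPM in M2629 and 942 and 1374 CPM in M2633 (adjusted p = 2.89e-05 between mice). Low Slc1a3 thus occurred in 1 mouse at each stage, and the sum of astrocyte markers, which Slc1a3 leads, ranged from 194.8 to 1573 CPM with it. Gatm, the first enzyme of creatine synthesis, stood at 839 and 837 CPM in M1375, 244 and 144 CPM in M1521, and 920.4 to 1217 CPM in the 6 libraries at 2 months (adjusted p = 0.00324 between mice).

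Hebp1, a haem-binding protein, was low in M1375 alone, at 9.96 and 3.49 CPM against 103 to 189 CPM in the other 8 libraries. Procr, the endothelial protein C receptor, stood at 47.8 to 62.8 CPM in M1375 and M2633 and 3.94 to 9.12 CPM in M1521, M2618 and M2629. Fhl3, a LIM-domain protein, stood at 0.753 to 2.04 CPM in M1375, M1521 and M2618 and at 55.9 to 71.7 CPM in M2629 and M2633. Each of these patterns was the same in both libraries of a mouse. Gt(ROSA)26Sor, the noncoding transcript of a locus used for reporter alleles, stood at 9.11 to 28.1 CPM in 4 mice and at 0.396 and 0.175 CPM in M2633.

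**Figure D2:**
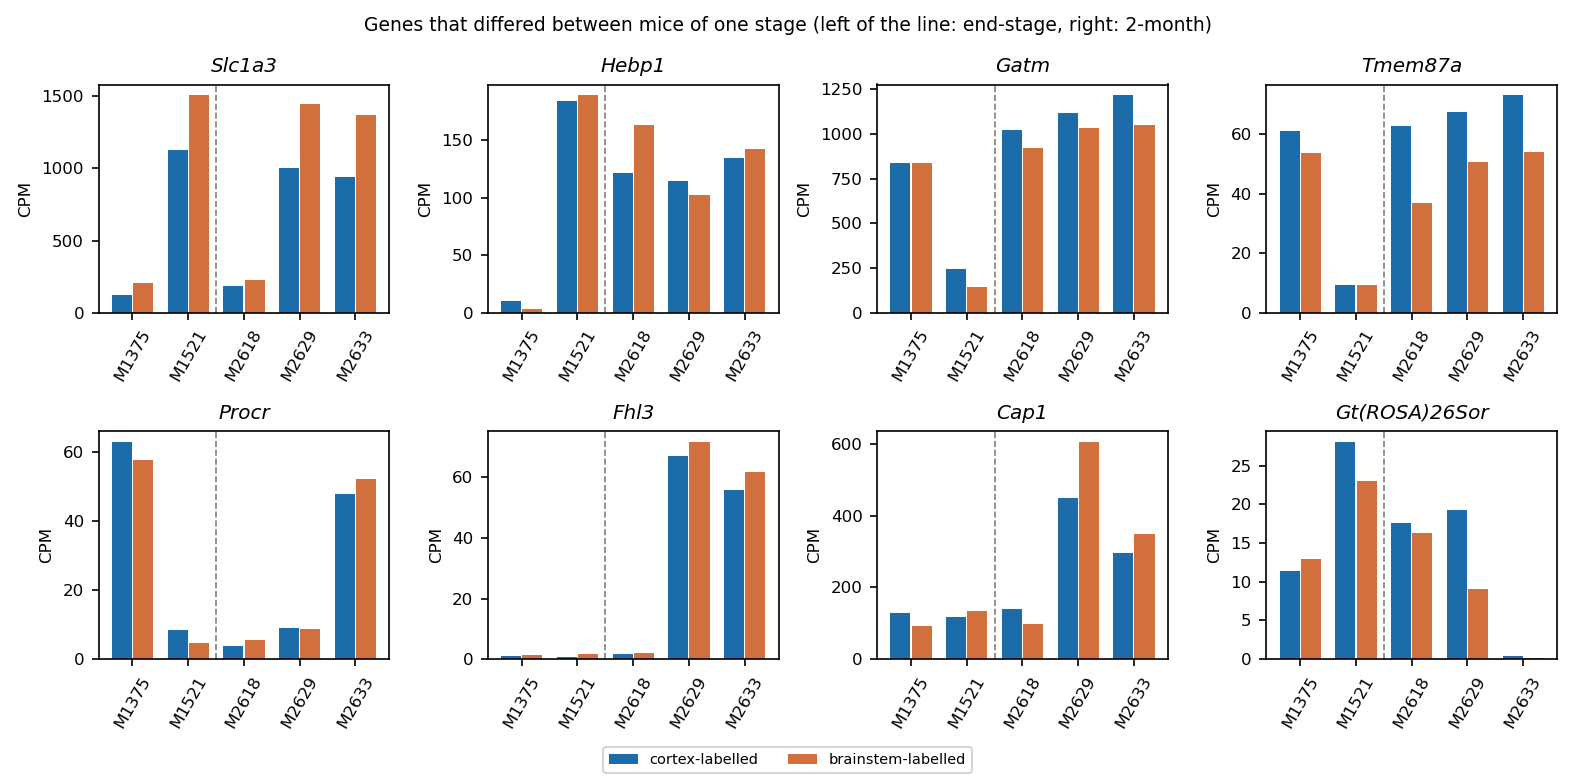
Level of 8 genes that differed between control mice of one stage, as TMM-scaled CPM on a linear axis from 0, with 1 bar per library, blue for cortex-labelled and orange for brainstem-labelled, and end-stage mice left of the dashed line. The 2 libraries of a mouse stand close together and mice of the same stage stand apart, as for Slc1a3 in M1375 (125 and 208 CPM) and M1521 (1130 and 1508 CPM).

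The Cre-free mouse M1375 stood apart at the Cre locus. Cx3cr1, the fractalkine receptor gene that holds the Cre, stood at 4400 and 5777 CPM in M1375, which has 2 intact copies, and 2161 and 2671 CPM in M1521. The 2-month mice, all heterozygous, stood at 2793 and 2646, 2514 and 2854, and 1988 and 1394 CPM. M1521 lay within the range at 2 months. The joint difference in Cx3cr1 was 0.60 ± 0.27 (limma voom, adjusted p = 0.543) and 0.07 ± 0.24 without M1375 (0.972). Braf stood at 15.6 and 33.1 CPM in M1375, 5.95 and 10.9 CPM in M1521 and 7.01 to 21.8 CPM at 2 months (−0.08 ± 0.41, 0.976), and these counts cannot show whether V600E is transcribed. With M1375 left out, so that all mice carried Cre and M1521 was the 1 end-stage mouse, 13 genes passed over both labels. Sun1 remained among them (−2.64, 0.0162), and Gatm (−2.49, 6.11e-05) and Tmem87a (−2.58, 0.0151) were lower, both of which were high in M1375. Higher were 10 genes, among them Ildr2 (2.74, 0.0162), Emp2 (2.35, 0.0193) and Sema4a (1.88, 0.0159). With a lone mouse the test assumes that it varies like the others.

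Sex and mouse M2618 moved together, since M2618 was the male. Without it all mice were female, and 24 genes passed over both labels, 5 higher and 19 lower at end-stage. Of these, 9 lay on chromosome 4, which held 5.74% of the tested genes. They were Alad, Angptl7, Cap1, Fhl3, Miip, Mxra8, Tmem52, Whrn and Zfp691. Angptl7, a secreted angiopoietin-like protein, stood at 87.0 and 165 CPM in M2629 and 76.8 and 161 CPM in M2633 but 8.26 and 37.8 CPM in M2618, the level of the end-stage mice (11.3 to 35.2 CPM). Zfp691 and Cap1 had the same arrangement. The part of sex, of M2618 as an animal and of its conflicting genotype label in these calls was not tested.

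Type I interferon response genes stood higher at end-stage in cortex-labelled libraries, led by mouse M1521, and 0 of 29 tested members passed in any comparison. All 29 had a positive joint difference, against 53.1% of all tested genes. Their median was 1.13 in cortex-labelled libraries, 0.44 in brainstem-labelled ones and 0.79 jointly, against −0.01, 0.03 and 0.02 over all genes. In cortex-labelled libraries 10 of 29 were higher without overlap (background 14%) and 0 lower. In brainstem-labelled ones 2 were higher (12.4%), and Zbp1, a sensor of Z-form nucleic acid, was the 1 in both (2.39%). Without M1521 the joint median was −0.02, the brainstem-labelled one −0.46 and the cortex-labelled one 0.25. Under the record reading the joint median was −1.67, the brainstem-labelled one −1.73 and the cortex-labelled one −2.55. The joint and brainstem-labelled directions thus rest on mouse M1521, and the direction in both labels rests on the number reading.

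The summed level of the interferon list was 631 CPM in M1375 and 998 CPM in M1521 in cortex-labelled libraries and 515, 535 and 432 CPM at 2 months. In brainstem-labelled libraries it was 316 and 459 CPM against 412, 319.9 and 289 CPM. M1521 was the highest in both labels, while M1375 was within the 2-month range in the brainstem-labelled library. Irf7, the factor that amplifies interferon production, stood at 20.7 and 42.4 CPM against 13.2, 17.1 and 13.1 CPM in cortex-labelled libraries, and at 1.90 and 13.8 CPM against 9.16, 3.68 and 5.78 CPM in brainstem-labelled ones. Bst2, the virus-tethering membrane protein tetherin, stood at 128 and 119 CPM against 63.0, 89.4 and 71.3 CPM (cortex-labelled 0.73 ± 0.21, edgeR, adjusted p = 0.52), and at 69.2 and 77.3 CPM against 94.9, 64.5 and 64.8 CPM. Oas1a, an activator of RNase L, stood at 26.5 and 47.1 CPM against 16.6, 17.7 and 13.3 CPM, and Ifit3b at 6.46 and 9.24 CPM against 2.57, 2.96 and 0.396 CPM. Both overlapped in brainstem-labelled libraries, where M1375 was the lowest of the 5 mice.

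The promoters of Bst2, Ifit3b and Oas1a are shown because these genes were separated in cortex-labelled libraries and hold the element bound by the interferon-activated factor complex. Each is the 250 bases before the RefSeq gene start in GRCm38.p6, 5′ to 3′ on the gene's strand. They lie at chr8:71537473-71537722 (minus strand), chr19:34607707-34607956 (plus strand) and chr5:120907526-120907775 (minus strand). Capitals mark TTTCNNTTTC or, read from the other strand, GAAANNGAAA, with matches allowed to overlap.
Bst2: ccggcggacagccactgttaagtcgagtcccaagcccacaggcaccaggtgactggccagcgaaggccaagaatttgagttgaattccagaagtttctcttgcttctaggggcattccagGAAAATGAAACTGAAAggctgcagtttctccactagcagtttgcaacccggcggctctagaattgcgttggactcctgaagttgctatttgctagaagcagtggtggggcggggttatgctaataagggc
Ifit3b: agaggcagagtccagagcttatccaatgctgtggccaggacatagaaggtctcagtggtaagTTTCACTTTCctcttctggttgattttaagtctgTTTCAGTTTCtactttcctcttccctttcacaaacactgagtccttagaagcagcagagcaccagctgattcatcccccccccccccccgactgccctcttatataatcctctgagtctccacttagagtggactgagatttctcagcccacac
Oas1a: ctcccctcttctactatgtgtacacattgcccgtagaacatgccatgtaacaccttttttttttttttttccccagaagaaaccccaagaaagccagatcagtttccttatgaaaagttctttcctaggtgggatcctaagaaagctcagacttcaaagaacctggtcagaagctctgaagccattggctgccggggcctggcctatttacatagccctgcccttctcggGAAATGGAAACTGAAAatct
Of 29 tested interferon genes 21 had a window in the RefSeq table, and 14 of those (66.7%) held the motif, against 1131 of 32851 windows (3.44%) and 3.99% of the 27025 genes in the table. Of the 10 members separated in cortex-labelled libraries, these 3 had a window that held it. A match describes the letters of the window and not binding.

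Class I antigen presentation genes stood with the interferon list in cortex-labelled libraries and not in brainstem-labelled ones. Of 16 tested members 10 were higher without overlap in cortex-labelled libraries (background 14%) and 0 lower. In brainstem-labelled libraries 1 was higher and 1 lower (12.4% and 10.3%). The medians were 0.65, −0.07 and 0.30, and 0 of 16 passed. H2-D1, a class I heavy chain, stood at 2110 and 4795 CPM against 1076, 2103 and 1565 CPM in cortex-labelled libraries (1.13 ± 0.42, edgeR, adjusted p = 0.546). In brainstem-labelled libraries it stood at 661 and 1665 CPM against 859, 1483 and 1420 CPM, with M1375 lowest and M1521 highest. Tap1, the peptide transporter, stood at 86.6 and 100.2 CPM against 67.5, 48.7 and 40.2 CPM in cortex-labelled and 52 and 71.4 CPM against 72.2, 57.6 and 60.3 CPM in brainstem-labelled libraries. Nlrc5, the transactivator of class I genes, was the member separated in both labels (background 2.39%). It stood at 6.25 and 14.7 CPM against 3.23, 6.16 and 1.98 CPM and at 2.45 and 2.54 CPM against 0, 1.48 and 0.876 CPM (1.79 ± 0.80, limma voom, 0.542). H2-Q4 varied by mouse, with 1.91 to 3.81 CPM in M1375 and M2618 and 13.3 to 46.7 CPM in the other 3 mice. The record reading turned the cortex-labelled class I median to −0.77. Class II genes had medians of 0.21 (−0.13 under the record reading) and 0.07. Cd40, a costimulatory receptor, was the 1 of 11 separated, higher in both labels (background 2.39%).

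**Figure D3:**
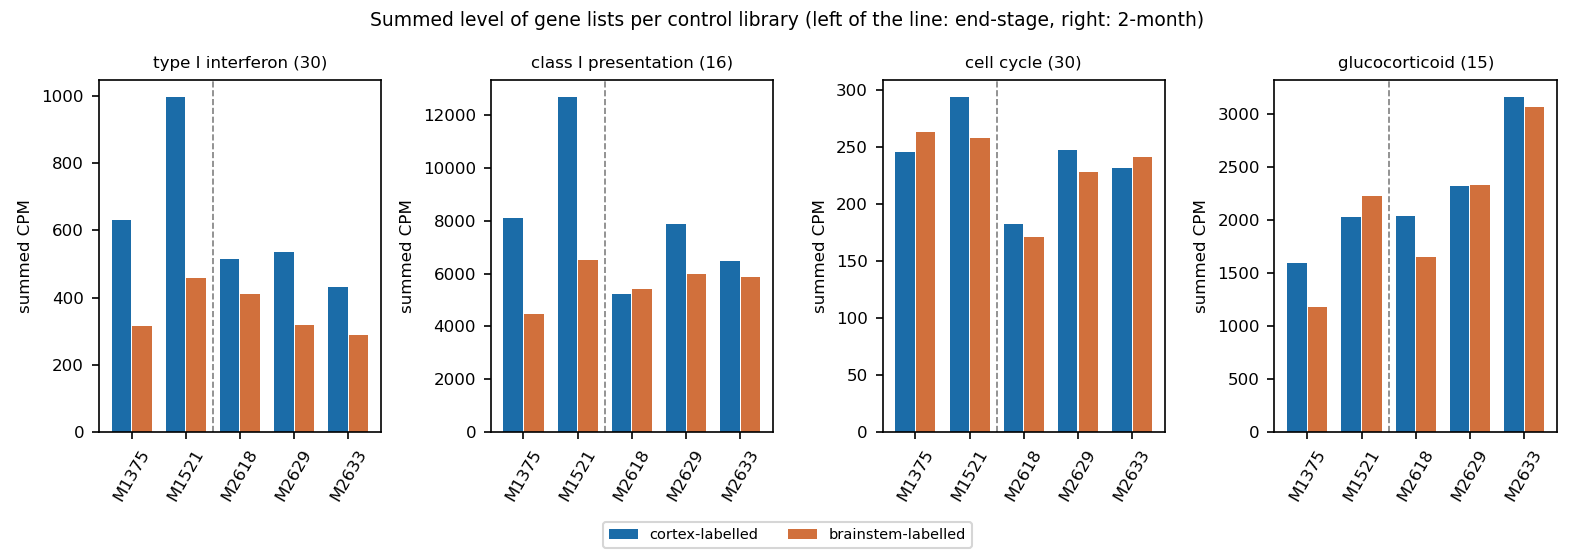
Summed TMM-scaled CPM of 4 gene lists in each control library, on linear axes from 0, with the number of genes summed in brackets, blue for cortex-labelled and orange for brainstem-labelled, and end-stage mice left of the dashed line. The cortex-labelled library of M1521 is the highest for interferon (998 CPM), class I and cell cycle genes, while glucocorticoid-response genes are highest in M2633.

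Genes linked to aged and disease-associated microglia differed in their counts by region label. Of 24 age-linked genes 11 were higher without overlap in cortex-labelled libraries (background 14%) and 0 lower, and in brainstem-labelled libraries 1 was higher and 6 lower (12.4% and 10.3%). Of 27 disease-associated genes 8 were higher and 1 lower in cortex-labelled libraries, and 0 higher and 8 lower in brainstem-labelled ones. The lists share members, so their counts are not independent. Among age-linked genes higher in cortex-labelled libraries, Bst2 and Ifi27l2a are also interferon genes and H2-D1 and H2-K1 class I genes. Likewise Cd63, Cst7 and Lyz2 are also disease-associated genes and Ccl3 and Il1b cytokine genes. Ctsb, Ctsd and Ctsz are in both the disease-associated and lysosome lists. Medians were 0.93 and 0.00 for the age-linked list and 0.35 and −0.38 for the disease-associated list, with 0 members passing in either. Without M1521 the cortex-labelled medians were 0.31 and −0.05, and under the record reading −1.60 and −0.44. Without M1375 the brainstem-labelled medians were 0.34 and −0.07.

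Neat1, a long noncoding RNA that scaffolds nuclear paraspeckles, was the age-linked gene separated in both labels (background 2.39%). It stood at 71.4 and 47.6 CPM against 39.5, 29.0 and 26.5 CPM in cortex-labelled libraries and 21.5 and 15.5 CPM against 5.26, 6.53 and 4.44 CPM in brainstem-labelled ones. The end-stage libraries lay above all 2-month ones within each label, with a joint difference of 1.12 ± 0.28 (limma voom, adjusted p = 0.233). In brainstem-labelled libraries the difference was 1.77 ± 0.28 (edgeR, 0.119), and DESeq2 called it there (1.59e-05). Cst7, an inhibitor of lysosomal proteases that marks disease-associated microglia, stood at 13.7 and 32.5 CPM against 5.47, 5.81 and 5.02 CPM in cortex-labelled libraries (2.09 ± 0.38, edgeR, 0.326, DESeq2 0.000510) and at 8.63 and 14.6 CPM against 9.95, 9.77 and 7.01 CPM in brainstem-labelled ones. Lyz2, a lysozyme, stood at 487 and 873 CPM against 324 to 370.1 CPM in cortex-labelled libraries. Apoe, a lipid carrier, stood at 662 and 995 CPM against 1555, 1238 and 869.7 CPM in cortex-labelled and 182 and 702 CPM against 1775, 1217 and 785 CPM in brainstem-labelled libraries (−1.14 ± 0.37, limma voom, 0.399), lowest in M1375 in both.

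The difference of the stage differences between region labels was tested directly. The edgeR test of stage by region called 0 of 15318 genes (0%), with 1102 at an unadjusted p under 0.05, and DESeq2 called 5: Ccl4, Ccl3, Cd63, Gm13479 and Zfp950. Ccl4, a chemokine of activated microglia, stood at 38.5 and 55.3 CPM against 38.8, 36.8 and 43.2 CPM in cortex-labelled libraries. In brainstem-labelled libraries it stood at 6.37 and 15.3 CPM against 52, 51.6 and 37.6 CPM, below all 2-month libraries. The difference between labels was 2.36 on the log2 scale (edgeR, adjusted p = 0.673, DESeq2 0.00346). Its neighbour Ccl3 stood at 41.3 and 50.8 CPM against 20.7, 19.2 and 28.9 CPM in cortex-labelled and 11.1 and 16.8 CPM against 27.4, 23.9 and 21 CPM in brainstem-labelled libraries. Cd63, a tetraspanin of late endosomes, stood at 431 and 471 CPM against 346, 349.7 and 306 CPM, and at 259 and 315 CPM against 623, 412 and 460.0 CPM (1.23 between labels, edgeR 0.673, DESeq2 0.0215). For Ccl3 and Cd63 the end-stage libraries were above all 2-month ones in one label and below all in the other.

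Lysosome, glycolysis and ribosomal protein genes were also mostly higher where separated in cortex-labelled libraries. Of 28 lysosome genes 13 were higher without overlap in cortex-labelled libraries, among them Ctsb and Ctsd, and 2 lower (background 14% and 14.8%). In brainstem-labelled ones 0 were higher and 8 lower (12.4% and 10.3%). Ctsd, an aspartic protease, stood at 13093 and 14366 CPM against 13079, 10984 and 11058 CPM, and at 9129 and 13853 CPM against 19653, 14290 and 17919 CPM. Ctsc, a dipeptidyl peptidase, was the 1 lysosome gene lower in both labels (background 1.83%). It stood at 1022 and 1071 CPM against 1288 to 1489 CPM and 571 and 649 CPM against 747 to 919 CPM (−0.44 ± 0.10, limma voom, adjusted p = 0.179). Of 20 glycolysis genes 13 were higher in cortex-labelled libraries and 0 lower. In brainstem-labelled ones 2 were higher and 2 lower, near the background shares of 12.4% and 10.3%. Of 38 ribosomal protein genes 11 were higher in cortex-labelled libraries and 0 lower. In brainstem-labelled libraries 0 were higher and 5 lower, the latter near the background share of 10.3%. Medians in cortex-labelled and brainstem-labelled libraries were 0.14 and −0.26 for the lysosome, 0.31 and −0.11 for glycolysis and 0.24 and −0.25 for ribosomal proteins, and 0 members passed. Without M1375 the brainstem-labelled medians were −0.06, 0.04 and −0.11, and under the record reading the cortex-labelled ones were −0.17, 0.00 and −0.67.

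**Figure D4:**
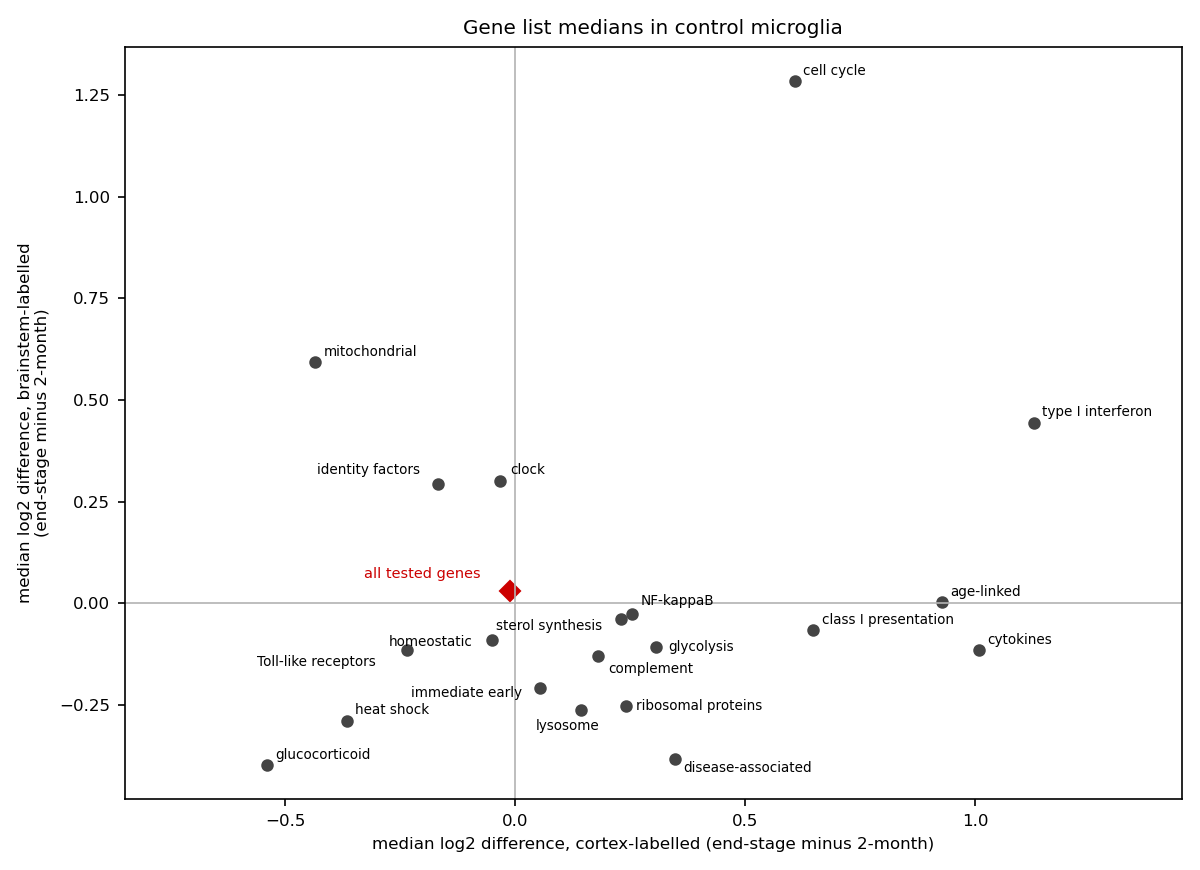
Median log2 difference, end-stage minus 2-month, of gene lists in cortex-labelled (x) and brainstem-labelled (y) control libraries, with the median of all tested genes as a red diamond. Interferon (1.13, 0.44) and cell cycle genes (0.61, 1.28) lie above 0 on both axes, glucocorticoid-response genes (−0.54, −0.40) below 0 on both, and disease-associated, lysosome and ribosomal protein genes right of and below 0.

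Transcript length moved with these differences by label. Among 8666 genes with a mean log2 CPM above 3, the 1 of 4 equal length classes with exons under 2.87 kb had a median difference of 0.03 in cortex-labelled libraries and −0.19 in brainstem-labelled ones. The class over 6.88 kb had −0.11 and 0.22. Across genes, which are not independent, Spearman's rho of length with the difference was −0.155 and 0.442. Per library, the mean log2 CPM of the long class less that of the short class was 0.124 in the brainstem-labelled library of M1375 and −0.693 to −0.078 in the other 9. Ribosomal protein and chemokine transcripts are short. The part of transcript length in the differences by label was not tested, and without the brainstem-labelled library of M1375 the stage by region test again called 0 genes (525 at an unadjusted p under 0.05).

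**Figure D5:**
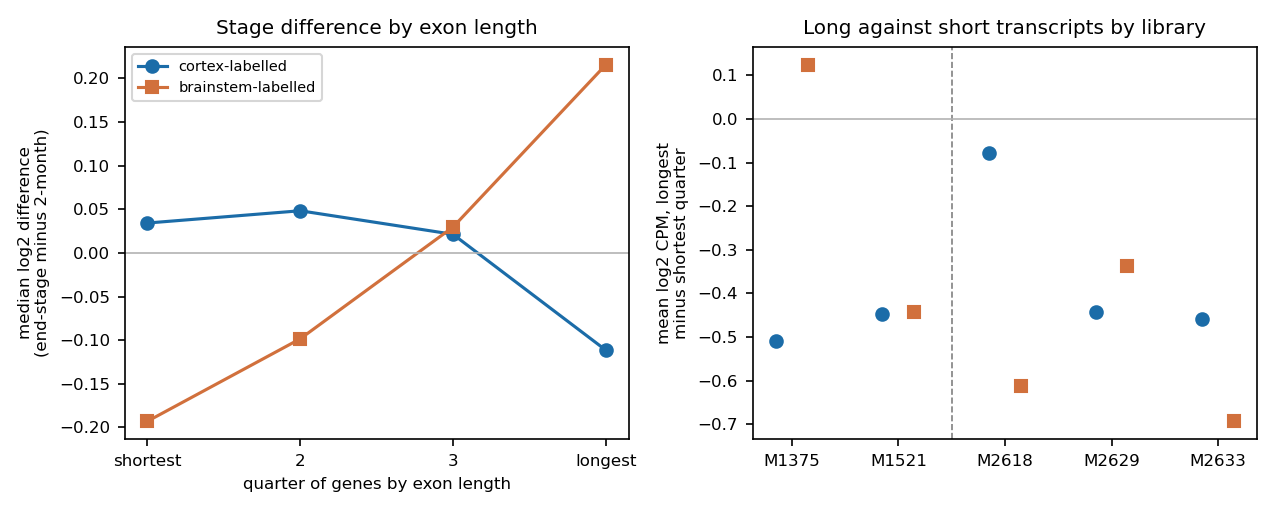
Left, the median log2 stage difference of genes in 4 equal classes of exon length for each region label; right, the mean log2 CPM of the longest less the shortest class in each library, with end-stage mice left of the dashed line. The brainstem-labelled difference goes from −0.19 in the shortest to 0.22 in the longest class, and the brainstem-labelled library of M1375 is the 1 library above 0 (0.124).

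Genes of NF-kappaB signalling, which drives inflammatory transcription, stood higher mainly in cortex-labelled libraries. Of 16 genes of NF-kappaB subunits and feedback, 8 were higher and 1 lower without overlap there (background 14% and 14.8%). In brainstem-labelled libraries 3 were higher and 2 lower (12.4% and 10.3%). Nfkbiz, an atypical inhibitor that coactivates secondary response genes, stood at 26.2 and 17.2 CPM against 14.9, 7.11 and 8.52 CPM, and at 9.31 and 11.8 CPM against 4.86, 5.76 and 6.25 CPM (1.01 ± 0.27, limma voom, adjusted p = 0.28). Tnfaip2 was likewise separated in both labels (background 2.39%). The list median was 0.13 jointly, with 0.08 to 0.16 when each mouse was left out. In cortex-labelled libraries the median was 0.25, and 0.04 under the record reading. Ier3, an early-response gene and target of NF-kappaB and ERK signalling, stood at 16.2 and 16.2 CPM against 7.38, 8.56 and 7.20 CPM, and at 17.3 and 31.3 CPM against 12.7, 10.6 and 9 CPM. It was above all 2-month libraries in both labels (1.11 ± 0.21, limma voom, 0.112), and without the brainstem-labelled library of M1375 it passed. Of 12 tested genes of ERK output, Ier3 and Epha2 were higher and the feedback inhibitor Spry1 lower in both labels (background 2.39% and 1.83%). The joint median of that list was −0.27, and −0.80 under the record reading.

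Cell cycle genes stood higher at end-stage in both labels, at low levels. Of 29 tested members 26 had a positive joint difference, 6 were higher without overlap in cortex-labelled libraries (background 14%) and 11 in brainstem-labelled ones (12.4%), and 0 were lower in either. The medians were 0.61, 1.28 and 0.78, and 0 passed. Mcm6, a subunit of the replicative helicase, stood at 24.3 and 19.9 CPM against 8.75, 18 and 14.6 CPM in cortex-labelled libraries and 24.1 and 25.6 CPM against 6.33, 10.3 and 7.13 CPM in brainstem-labelled ones. Mcm6 was separated in both labels (1.18 ± 0.26, limma voom, adjusted p = 0.174), as were Rrm1 and Cdc6 (background 2.39%). DESeq2 called Mcm6 in brainstem-labelled libraries (0.00186). Aurkb, a mitotic kinase, stood at 2.82 and 4.04 CPM against 0.0565, 0.220 and 0.292 CPM in brainstem-labelled libraries, where the 2-month values are near or within what a count of 0 allows. It overlapped in cortex-labelled libraries. The cortex-labelled median was −0.13 without M1521, and the brainstem-labelled one was 0.34 without M1375. Under the record reading the cortex-labelled, brainstem-labelled and joint medians were −2.04, 0.22 and −0.83. The cortex-labelled direction thus rests on M1521 and on the number reading. The summed list stood at 246 and 294 CPM against 182, 247 and 232 CPM in cortex-labelled libraries, with overlap, and at 263 and 258 CPM against 171, 228 and 242 CPM in brainstem-labelled ones, without overlap.

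Glucocorticoid-response genes stood lower at end-stage in both labels. Of 12 tested members 4 were lower without overlap in cortex-labelled libraries (background 14.8%), 5 in brainstem-labelled ones (10.3%) and 0 higher. The medians were −0.54, −0.40 and −0.43. The joint median was −0.82 to −0.29 when each mouse was left out and −0.38 under the record reading. Tsc22d3, the glucocorticoid-induced leucine zipper, stood at 211 and 178 CPM against 249, 475 and 650.4 CPM, and at 90.6 and 112 CPM against 115, 343 and 579 CPM (−1.31 ± 0.38, limma voom, adjusted p = 0.334). Per1, a clock gene induced by glucocorticoids, stood at 8.47 and 10.7 CPM against 13.8, 28.7 and 33.0 CPM, and at 6.37 and 11.4 CPM against 11.4, 31.0 and 41.7 CPM (−1.39 ± 0.43, 0.356). Both genes were separated in both labels (background 1.83%). M2618 was the lowest 2-month mouse each time and, for Per1 in brainstem-labelled libraries, level with M1521 after rounding. Ddit4, a stress-induced inhibitor of mTORC1, varied most between mice, at 3.71 and 5.94 CPM in M1375, 11.4 and 28.8 CPM in M1521, 10.3 and 33.0 CPM in M2618, 43.3 and 101 CPM in M2629 and 70.9 and 146 CPM in M2633 (adjusted p = 0.00101 between mice of one stage). Without M2618 all 3 fell: Tsc22d3 by 1.82 (0.00753), Per1 by 1.87 (0.0133) and Ddit4 by 3.06 (0.0187) on the log2 scale. The sources used here do not give the time of day of tissue collection. In the clock list of 17 genes Tef was higher and Nfil3 and Per1 were lower in both labels (background 2.39% and 1.83%).

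Homeostatic microglial genes had small median differences, and more were lower than higher at end-stage. Of 22 tested members 1 was higher and 7 lower without overlap in cortex-labelled libraries (background 14% and 14.8%). In brainstem-labelled ones 1 was higher and 4 lower (12.4% and 10.3%). A negative joint difference was found for 15 of 22, against 46.9% of all tested genes. The medians were −0.05, −0.09 and −0.13 (0.11, −0.05 and 0.05 under the record reading), and 0 passed. Sparc, a secreted matrix glycoprotein, was the member lower in both (background 1.83%). It stood at 5853 and 5758 CPM against 6306, 7174 and 8218 CPM and at 5740 and 7305 CPM against 9014, 8127 and 9276 CPM (−0.37 ± 0.11, limma voom, adjusted p = 0.334). P2ry12, the purinergic receptor that guides process motility, stood at 3843 and 3890 CPM against 5764, 6508 and 6273 CPM in cortex-labelled libraries (−0.67 ± 0.16, edgeR, 0.509). In brainstem-labelled libraries it stood at 8769 and 6498 CPM against 8370, 7869 and 6231 CPM, with overlap. Csf1r, the receptor on which microglia depend, had a joint difference of 0.00 ± 0.13.

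Transcription factors of microglial identity were more often lower than higher in cortex-labelled libraries, with 2 of 20 higher and 9 lower without overlap (background 14% and 14.8%). In brainstem-labelled ones 3 were higher and 3 lower (12.4% and 10.3%). The medians were −0.17 and 0.29 (−0.20 and 0.14 under the record reading), and 0 passed. Cebpa, Cebpb and Tal1, factors of myeloid and blood development, were lower in both (background 1.83%). Cebpa stood at 129.5 and 111 CPM against 139, 139 and 149.7 CPM, and at 105 and 107 CPM against 169.6, 173 and 214 CPM. The brainstem-labelled difference was −0.80 ± 0.16 (edgeR, adjusted p = 0.322), which DESeq2 called (0.00118). Cebpb stood at 98.3 and 88.8 CPM against 102, 137 and 212 CPM, and at 75.6 and 77.4 CPM against 114, 112 and 185 CPM (−0.71 ± 0.20, limma voom, 0.328). Spi1, the master factor PU.1 of the myeloid lineage, stood at 582 to 867 CPM at end-stage and 591 to 949 CPM at 2 months over both labels. Within cortex-labelled libraries it was higher at end-stage without overlap. Sall1, a microglia-specific repressor, had a joint difference of 0.17 ± 0.13. In the TGF-beta pathway Smad4, the common signal transducer, was the 1 of 15 lower in both labels (background 1.83%). It stood at 57.1 and 57.8 CPM against 82.4 to 84.6 CPM and 75.7 and 72.5 CPM against 78.6 to 93.6 CPM.

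Among the remaining lists, complement genes had medians of 0.18 and −0.13, sterol synthesis 0.23 and −0.04, immediate early genes 0.05 and −0.21, and Toll-like receptors −0.24 and −0.11 in cortex- and brainstem-labelled libraries. Heat shock genes had −0.37 and −0.29. Of 12, 0 were separated in the same direction in both labels, near the background of 2.39% higher and 1.83% lower. Cytokines and chemokines had 1.01 and −0.12, with 5 of 19 higher and 1 lower without overlap in cortex-labelled libraries (background 14% and 14.8%). The cortex-labelled cytokine median was 0.03 without M1521. Under the record reading the cortex-labelled medians of cytokines, complement, sterol synthesis and immediate early genes were −1.75, −0.26, −0.44 and −0.16. No member of the 47 lists passed in any of the 4 comparisons. Of 12 astrocyte markers 9 were tested, and 6 had a positive and 3 a negative joint difference, with medians of 0.37 and −0.02 in cortex- and brainstem-labelled libraries. Gfap was lower without overlap in cortex-labelled libraries, while Aldh1l1 and Aldoc were higher in both labels (background 2.39%). Aldh1l1 stood at 3.81 and 3.7 CPM against 1.15, 1.40 and 1.52 CPM, and at 0.612 and 2.07 CPM against 0 in all 3 brainstem-labelled libraries at 2 months. Summed neuronal markers were 12.1 and 25.9 CPM against 15.2, 4.01 and 6.94 CPM in cortex-labelled libraries, and their part in the results was not tested.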

How the data were processed

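Bulk microglial RNA went through 12 amplification cycles (SMART-Seq v4) and 8 library cycles (KAPA Hyper Prep), per the labels' protocols. The authors deposited 1 table of unnormalized counts per gene. FastQC, Subread, edgeR and the build mm10 are named, per the submitters' processing notes. The sources used here do not give the annotation, the strand setting or how multi-mapping reads were treated. Of 55487 gene identifiers, 55394 had a symbol in GENCODE M21. The 93 without one held 0.00123% of counts and took part in no naming.

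The 10 control libraries were taken by the mouse number in the column name. Genes were kept by filterByExpr, leaving 15318, and TMM factors were computed. Each region label, and stage by region, was tested with edgeR 4.0.16 (quasi-likelihood, 4 groups of region and stage, 6 residual degrees of freedom). Both labels together were tested with limma 3.58.1 (voom, region as covariate, mouse as correlated block, estimated correlation 0.0529), in R 4.3.3. Benjamini-Hochberg adjustment ran over all tested genes, with a threshold of 0.05. CPM values used TMM-scaled library sizes over all 20 libraries. Mice are separate animals, and the libraries of a mouse share an animal. A floor of 3 counts stands for a count of 0, which covers counting error alone because the reads carry no molecular identifiers. Tested on simulated data with 200 of 15318 genes changed 4-fold, the tests recovered 77.5% in cortex-labelled, 78.5% in brainstem-labelled and 90% in joint fits, with 12, 12 and 10 false calls. The simulation drew every library independently, with no effect shared by the libraries of a mouse, and changed no genes of low level. It therefore cannot give the recovery or false calls for data in which libraries of a mouse deviate together.

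Named genes were those that passed, did not overlap between the groups and averaged a log2 CPM of 1 or more, without predicted genes, Riken clones and pseudogenes, up to 4 members of each of 47 lists with the smallest joint p, and Braf, Cx3cr1 and sex-linked genes. Other genes named were chosen after their values were seen, among them those that differed between mice and those next in order of p. The members and the lists were chosen with earlier results of these data known. Genes were described by their lists with counts and medians beside those of all tested genes, and lists were not tested. Some genes are members of several lists. Gene lengths are of merged exons and covered 99.1% of tested genes. Alternatives were DESeq2 1.42.0 and its size factors, no low-count filter, all 20 libraries, only the 5 compared libraries, the record reading, counts summed per mouse, the replicate block, and each mouse left out. Leaving out the brainstem-labelled library of M1375 and the test between mice were added after the data were seen.

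Libraries of a mouse deviated together. Over 8666 genes the correlation of the deviations of its 2 libraries from their group means was 0.36 in M2618, 0.336 in M2629 and 0.524 in M2633. It was 0.194 in the end-stage mice, where 2 mice give 1 value. The pairing comes from the labels, since both libraries of a number are from 1 animal.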

Additional observations from a re-analysis of the deposited data

How the results depend on the processing

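The counts of called genes depended on the setting. In cortex-labelled libraries the 2 calls became 66 with DESeq2, 222 with no low-count filter, and 0 with all 20 libraries in the fit, with only the 5 compared libraries or under the record reading, and 1 to 7 when each mouse was left out. In brainstem-labelled libraries the 3 calls became 46, 234, 0, 1 and 0 in the same order, 0 to 9 when each mouse was left out, and 0 without the brainstem-labelled library of M1375, a setting chosen after the data were seen. Over both labels there were 2 other calls, Dlg5 and Zfp13, with all 20 libraries in the fit, so that Sun1 (adjusted p = 0.169) and Gm10093 (0.0506) were lost. The 2 calls became 17 with no filter, 6 under the record reading, of which 1 (Gm10093) was shared, 1 (Sun1) with counts summed per mouse, 7 without that library and 2 to 24 when each mouse was left out: 13 without M1375, 2 without M1521, 24 without M2618, 8 without M2629 and 11 without M2633. Stage by region gave 5 calls with DESeq2 and 128 with no filter. The test between mice gave 791 with no filter, 105 with DESeq2 size factors and 129 under the record reading. DESeq2 size factors kept the counts of 2, 3, 2 and 0. The cause of these moves was not tested. With no filter, 28879 genes were tested, genes with counts near 0 among them. The joint calls added in that setting also included genes already tested in the main fit, such as Alad, Cdc42ep3 and Rnase4. Depth limits what can be seen of genes near the floor of 0.155 to 0.319 CPM.

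For the pairing of libraries by mouse, the joint fit without the replicate block gave 4 calls, adding Alad and Zfp13, and mouse as a replicate block left stage by region at 0 calls, with 1406 genes at an unadjusted p under 0.05. Stage lies between mice, so no fixed block could be fitted for it. Over all named genes and settings, 1925 values kept their direction and side of the threshold or moved less than their spread, 83 moved, 26 lost and 4 gained a call, and none turned direction while called.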
